A study of Mus musculus with 6 samples.

Results

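The cyclic AMP (cAMP) feedback set held 7 of the 23127 genes measured: the phosphodiesterase genes Pde4a, Pde4b and Pde4d, the protein kinase A gene Prkaca, and the transcription factor genes Crem, Creb1 and Atf1. They were chosen by gene symbol with the difference between the treated and untreated libraries already known, so their values in that contrast are given as a description, without a test. All 7 were in the deposited table and passed the filter on low values, a mean of at least 10 scaled counts. The study asked how intestinal stem cells change their transcriptome when they meet interferon gamma (IFNg), a cytokine of T cells and natural killer cells. The IFNg group was 3 libraries (end numbers 6, 2 and 10 in the sample titles), whose cells received IFNg at 1 ng/ml for 1.5 h while the medium supplied EGF, Noggin and R-spondin1. The untreated group was 3 libraries (5, 1 and 9) labelled as having had no treatment, and apart from the time in their titles the labels do not say how these cells were kept. If they were kept otherwise than the IFNg cells, culture and IFNg cannot be told apart in any difference below. Both groups were cells sorted for high Lgr5-GFP, a reporter that marks crypt base stem cells, and came from small intestines of C57BL/6 mice that carry the reporter. Libraries 6 and 5 are tagged GFP1 in their titles and the other 4 GFP3, a distinction the labels leave unexplained. Nothing in the labels ties a library to its own animal, so a p-value here reflects the spread between these samples alone, and that spread may be technical.

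Each library had 28508762 to 40224497 reads in genes. Of 10 crypt stem cell and epithelial markers, limma called 0, and their levels did not move together. Lgr5, Krt8 and Cdh1 were lower in IFNg libraries in all 3 pairs, with overlapping groups, while Epcam stood at 19346, 42859 and 73222 scaled counts in IFNg 6, 2 and 10 and at 19431, 8445 and 8895 in untreated 5, 1 and 9 (DESeq2 adjusted p = 0.022, limma 0.296, range 0.00223 to 0.945). Smoc2 (ratio of means 2.20) and Ascl2 (1.92) passed limma in the GFP3 libraries alone (adjusted p = 0.0089 and 0.00877) but not in all 6 (0.395 and 0.507), and Olfm4 was at 225396 to 240556 in IFNg libraries and 219689 to 266604 in untreated libraries. White blood cell markers, of interest because leukocytes are rich in Pde4b, had 18 of 23 symbols in the table and summed to 504 to 617 scaled counts in IFNg libraries and 479 to 581 in untreated libraries. Among them the T cell gene Cd3e was at 0 to 10.6 in IFNg libraries and 0 to 6.18 in untreated libraries, and the pan-leukocyte gene Ptprc at 11.1 to 41.2 and 20.6 to 33.7. The B cell gene Ms4a1 was the marker of this list whose groups did not overlap, at 71.6, 34.7 and 43.0 in IFNg 6, 2 and 10 and 27.4, 22.4 and 19.6 in untreated 5, 1 and 9 (limma adjusted p = 0.579). Of the crypt markers, Rgmb did not overlap, at 217, 209 and 713 in those IFNg libraries and 206, 193 and 196 in those untreated ones (limma 0.843). Over all tested genes, 8.13% did not overlap in the higher direction. All 8 Paneth cell markers in the table had log2 differences below 0 (median -0.98, 0 called in limma), with sums of 24141 to 201447 in IFNg libraries and 105296 to 360262 in untreated libraries. Other secretory lineages also had signal. Goblet cell markers summed to 86590.5 to 173452 in IFNg libraries and 78676 to 276529 in untreated libraries. Enteroendocrine markers summed to 6645 to 19983 and 8107 to 24052.5. In both lists limma called 0. Mitochondrial genes took 2.08% to 6.21% of the gene signal in IFNg libraries and 1.35% to 6.81% in untreated libraries.

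cAMP is made by adenylyl cyclases below G protein-coupled receptors and acts through protein kinase A (PKA), whose catalytic subunit Prkaca encodes. PKA phosphorylates Creb1, Crem and Atf1, a family of leucine zipper factors that bind the cAMP response element (CRE) in their target genes. The signal is limited by phosphodiesterases that degrade cAMP, of which the PDE4 enzymes are specific for it, and by ICER, a repressor made from an internal start of Crem. Short PDE4 transcripts and ICER are themselves induced by cAMP in many cells, which gives the pathway its feedback arms. In the intestinal epithelium cAMP is best known for driving chloride secretion through Cftr.

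Because the Pde4b gene carried one of the large differences described below and Pde4d did not, the annotated promoter windows of both were read from RefSeq (GRCm38.p6; 250 bases before to 50 after a start). The table held 12 windows for 6 of the 7 genes, 4 of them for Pde4b, on the plus strand of chromosome 4. Crem, the other gene with a large difference, had no window here, so none of the counts below covers it. Each was searched on both strands for the CRE, TGACGTCA, and for its shorter form TGACG, which the full CRE contains. The full CRE was in 0 of the 12 windows, against 1.79% of all 32851 windows of this length. TGACG was in 4 windows, against 20.8% of all windows, and 1 of these belonged to Pde4b. The others belonged to Pde4a, Prkaca and Atf1, genes whose groups overlapped in the values below. Capitals mark TGACG on either strand. The Pde4b window with TGACG is shown beside the only Pde4d window, which had no TGACG. The annotation gives Pde4d 20 transcript starts, so this window covers only part of them. TGACG was thus not particular to the gene with the large difference. These matches describe letters only. The deposited values are sums over a whole gene, so which of the 13 annotated transcript starts of Pde4b was used was not measured.
Pde4b window 1 (chr4:102421305-102421604, plus strand): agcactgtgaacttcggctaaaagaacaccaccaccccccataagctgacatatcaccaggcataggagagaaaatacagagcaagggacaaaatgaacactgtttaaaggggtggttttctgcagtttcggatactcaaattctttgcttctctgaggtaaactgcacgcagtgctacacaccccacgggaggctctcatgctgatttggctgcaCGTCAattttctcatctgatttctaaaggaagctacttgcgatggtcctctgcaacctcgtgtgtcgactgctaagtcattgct
Pde4d window 1 (chr13:108653927-108654226, plus strand): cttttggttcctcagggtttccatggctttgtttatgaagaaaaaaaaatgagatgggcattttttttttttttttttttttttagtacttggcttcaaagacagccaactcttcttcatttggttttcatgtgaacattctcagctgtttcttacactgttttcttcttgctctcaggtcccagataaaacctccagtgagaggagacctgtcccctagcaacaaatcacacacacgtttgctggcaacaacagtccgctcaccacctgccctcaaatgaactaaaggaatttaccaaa

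Values are scaled counts, which are reads in a gene divided by 1 size factor per library, with mean ± SD and n = 3 per group. Pde4b (mm10 chromosome 4, 102087543 to 102607259, plus strand), which encodes the PDE4 enzyme most tied to inflammatory signalling, stood at 4359.8 in IFNg 6, 5442 in IFNg 2 and 4343 in IFNg 10. It stood at 274 in untreated 5, 384 in untreated 1 and 307 in untreated 9. Every IFNg library lay far above every untreated one, and the IFNg libraries lay close together. The means were 4715 ± 629.5 in IFNg libraries and 322 ± 56.3 in untreated libraries, a ratio of 14.7, and the log2 difference on the log2(scaled count + 1) scale was 3.88 ± 0.265 (SE from limma). In bulk samples such as these, a change in the number of cells of a type and a change in RNA per cell cannot be told apart.

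Pde4d (chromosome 13, 108449948 to 109953461, plus strand), which encodes a PDE4 enzyme that associates with beta-adrenergic receptor complexes, went the other way by a small amount. It stood at 690.0, 744 and 638 in IFNg 6, 2 and 10, and at 981, 1184 and 849.7 in untreated 5, 1 and 9. The groups did not overlap, though IFNg 2 and untreated 9 lay near each other. The means were 691 ± 53.2 in IFNg libraries and 1005 ± 168 in untreated libraries, a log2 difference of -0.53 ± 0.263 (SE).

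Pde4a (chromosome 9, 21165714 to 21213248, plus strand), the third PDE4 gene of the set, had few reads in every library and was at the limit of detection in IFNg 6. It had 0 reads in IFNg 6, which allows up to 3 reads or 2.56 scaled counts, and 44 and 57 reads in IFNg 2 and 10, against 11, 20 and 27 reads in untreated 5, 1 and 9. In scaled counts these were 0, 42.4 and 50.01 in the IFNg libraries and 11.6, 17.2 and 27.8 in the untreated libraries. The groups overlapped because IFNg 6 lay below all others, and no direction can be given: the log2 difference was -0.53 with IFNg 6 and 1.33 without it. A floor of 3 reads and all such limits cover counting error only.

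**Figure D1:**
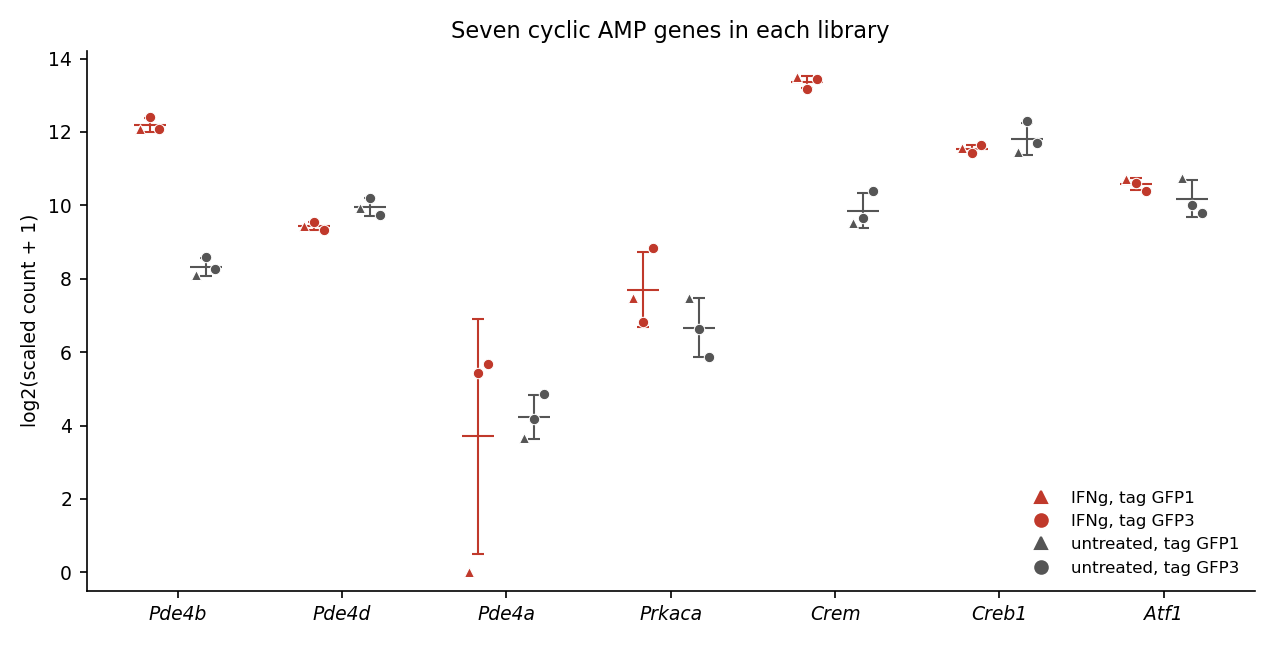
log2(scaled count + 1) of the 7 genes (vertical axis) in each library, IFNg in red and untreated in grey, with triangles for tag GFP1 and circles for tag GFP3; bars give the mean ± SD of 3 libraries. Pde4b and Crem lie well apart between the groups, Pde4d lies slightly lower in IFNg libraries, and Pde4a, Prkaca, Creb1 and Atf1 overlap.

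Within the PDE4 family the main transcript thus differed between the groups. Divided by exon length and summed over the 4 family genes, Pde4c included, Pde4b made up 86.9%, 87.9% and 86.1% of the PDE4 signal in IFNg 6, 2 and 10, and 22.1%, 26.0% and 26.6% in untreated 5, 1 and 9. Pde4d made up 12.1%, 10.6% and 11.1% in the IFNg libraries and 69.7%, 70.5% and 64.8% in the untreated libraries. Pde4b was the largest part in every IFNg library and Pde4d in every untreated one. The summed PDE4 level was 513 ± 63.1 scaled counts per kb of exon in IFNg libraries and 122 ± 15.9 in untreated libraries, a ratio of 4.20. The exon lengths are unions over all annotated transcripts (10560 bases for Pde4b and 12006 for Pde4d), so a gene that uses a short transcript appears lower than it is.

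**Figure D2:**
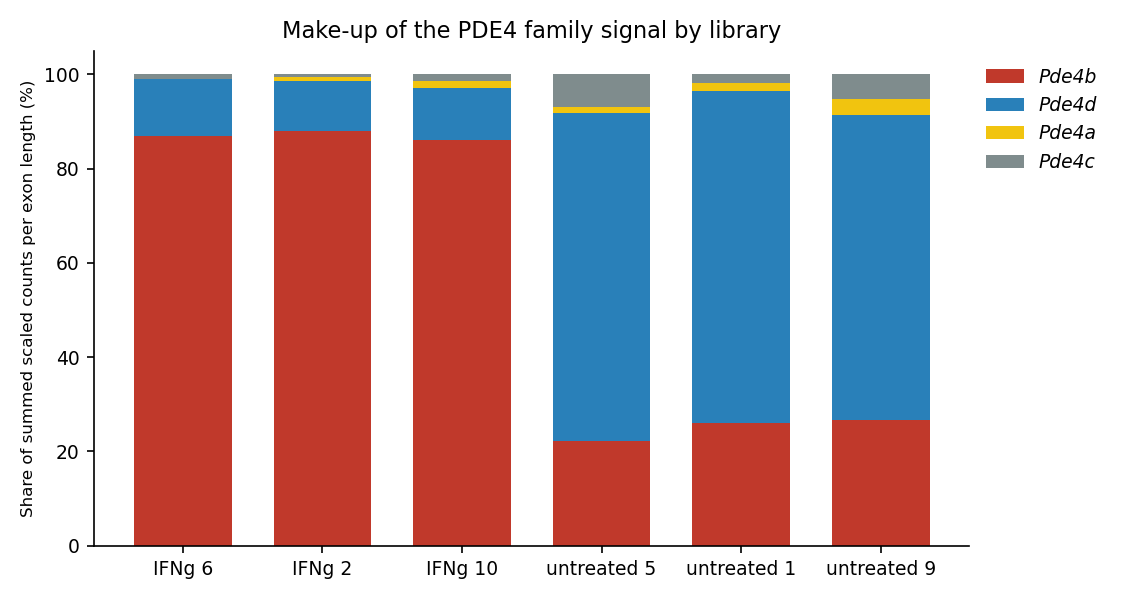
Share of the PDE4 family's summed scaled counts per exon length (vertical axis, percent) held by Pde4b, Pde4d, Pde4a and Pde4c in each library, 1 bar per library. Pde4b holds 86.1% to 87.9% in IFNg libraries and 22.1% to 26.6% in untreated libraries, and Pde4d holds most of the rest.

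Set among 15 genes for phosphodiesterases that degrade cAMP, Pde4b was a minor transcript in untreated cells and the largest in IFNg cells. It made up 49.7%, 40.2% and 31.3% of their summed per-length level in IFNg 6, 2 and 10, and 4.97%, 4.60% and 3.31% in untreated 5, 1 and 9. Pde2a, a cGMP-stimulated enzyme, held 10.1% to 23.2% in IFNg libraries and 19.9% to 51.5% in untreated libraries. Pde3a, a cGMP-inhibited enzyme, held 8.88% to 23.2% in IFNg libraries and 13.9% to 20.5% in untreated libraries. The summed level was 1143 ± 272 scaled counts per kb in IFNg libraries and 729.8 ± 185 in untreated libraries, and these ranges overlapped (829.9 in IFNg 6 and 877 in untreated 9).

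Prkaca (chromosome 8, 83972993 to 83996443, plus strand), the kinase subunit that cAMP sets free, stood at 176.5, 112 and 454 scaled counts in IFNg 6, 2 and 10, and at 177.0, 98.1 and 57.7 in untreated 5, 1 and 9. Only IFNg 10 stood apart, and the groups overlapped. The means were 247 ± 182 in IFNg libraries and 111 ± 60.7 in untreated libraries, and the log2 difference was 1.05 ± 0.588 (SE), or 0.48 without IFNg 10.

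Crem (chromosome 18, 3266048 to 3337748, minus strand), which encodes both activators and the repressor ICER, was the most abundant of the set in IFNg libraries. It stood at 11518, 9199.9 and 11028 scaled counts in IFNg 6, 2 and 10, and at 728, 800.1 and 1347 in untreated 5, 1 and 9. The lowest IFNg library lay far above untreated 9, the highest of the untreated ones. The means were 10582 ± 1222 in IFNg libraries and 958 ± 339 in untreated libraries, a ratio of 11.0, with a log2 difference of 3.51 ± 0.299 (SE). The annotation gives Crem 39 transcripts from 26 starts, and the gene sums do not separate ICER from the activator forms. Gm6225, a noncoding transcript on the opposite strand, shares 472 exon bases with Crem, and the library kit does not mark strand. Gm6225 stood at 9.38, 43.4 and 43.9 in IFNg 6, 2 and 10, and at 5.27, 9.46 and 12.4 in untreated 5, 1 and 9, far below Crem in every library.

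Creb1 (chromosome 1, 64532645 to 64604548, plus strand), the founding activator of the family, stood at 3028, 2747 and 3178 scaled counts in IFNg 6, 2 and 10, and at 2799, 5042 and 3324 in untreated 5, 1 and 9. The groups overlapped, and the widest gap was set by untreated 1. The means were 2984 ± 219 in IFNg libraries and 3722 ± 1173 in untreated libraries, and the log2 difference was -0.28 ± 0.284 (SE).

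Atf1 (chromosome 15, 100227819 to 100261244, plus strand), a close relative that pairs with Creb1, stood at 1697, 1552 and 1350.3 in IFNg 6, 2 and 10, and at 1711, 1023 and 886 in untreated 5, 1 and 9. The groups overlapped through untreated 5, which was the highest of all 6. The means were 1533 ± 174 in IFNg libraries and 1206 ± 442 in untreated libraries, with a log2 difference of 0.40 ± 0.310 (SE).

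The balance between Crem and its relatives differed between the groups. The ratio of Crem to Creb1 in scaled counts was 3.80, 3.35 and 3.47 in IFNg 6, 2 and 10, and 0.260, 0.159 and 0.405 in untreated 5, 1 and 9. The ratio of Crem to Atf1 was 6.79, 5.93 and 8.17 in the IFNg libraries and 0.425, 0.782 and 1.52 in the untreated libraries. These ratios compare libraries and not genes, since they are not divided by length.

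**Figure D3:**
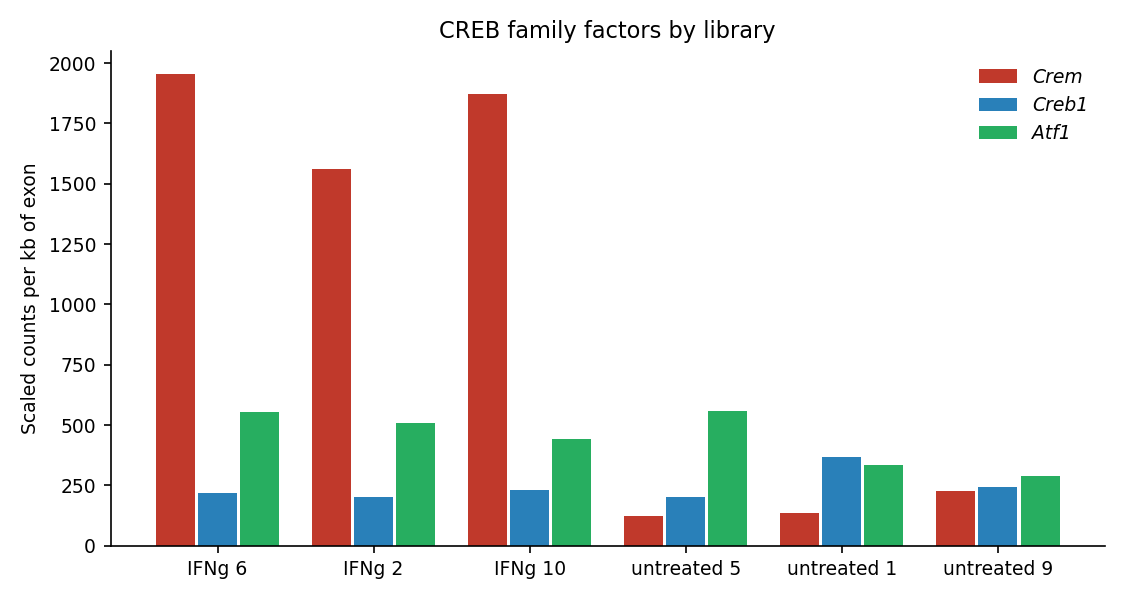
Scaled counts per kb of exon (vertical axis) of Crem, Creb1 and Atf1 in each library, 1 bar per gene and library. Crem is the tallest bar in the 3 IFNg libraries, at 1561 to 1954, and lies at 123 to 229 in the untreated libraries.

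Per kb of exon, the order of levels in IFNg libraries was Crem (1795 ± 207), Atf1 (501 ± 56.9), Pde4b (446 ± 59.6), Creb1 (217 ± 15.9), Prkaca (99.4 ± 73.0), Pde4d (57.5 ± 4.43) and Pde4a (4.02 ± 3.52). In untreated libraries it was Atf1 (394 ± 144), Creb1 (271 ± 85.4), Crem (163 ± 57.4), Pde4d (83.7 ± 14.0), Prkaca (44.6 ± 24.4), Pde4b (30.4 ± 5.33) and Pde4a (2.46 ± 1.08). Neighbours in these orders whose libraries overlapped were Atf1 with Pde4b and Prkaca with Pde4d in the IFNg group. In the untreated group they were Atf1 with Creb1, Creb1 with Crem, Pde4d with Prkaca, and Prkaca with Pde4b. Atf1 was the top gene of the untreated order by exon length, and Creb1 by coding length.

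Neighbouring end numbers within a tag (6 with 5, 2 with 1, 10 with 9) were taken as pairs, from the correlation of their deviations. Pde4b differed by 3.99, 3.82 and 3.82 log2 units within the 3 pairs. Since the pairs were picked from these same data, the evenness of these sizes depends on the matching. Crem differed by 3.98, 3.52 and 3.03 within the same pairs, lowest in the pair with untreated 9, where its untreated level was highest. Pde4d differed by -0.51, -0.67 and -0.41, and the other 4 genes did not keep 1 direction over the pairs. In the GFP3 libraries alone the log2 difference was 3.82 for Pde4b, beside 3.88 in all 6 libraries, and 3.28 for Crem, beside 3.51. The leukocyte marker sums overlapped between the groups, but their largest parts were the myeloid genes Cd68 and Itgam. Cd68 averaged 177 in IFNg libraries and 180 in untreated libraries, and Itgam 138 and 136. Lymphocyte genes such as Cd3e (3.83 and 2.41) hardly enter these sums. The part of leukocytes, Epcam, Ms4a1 and the lower Paneth cell markers in the differences of the members was not tested.

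**Figure D4:**
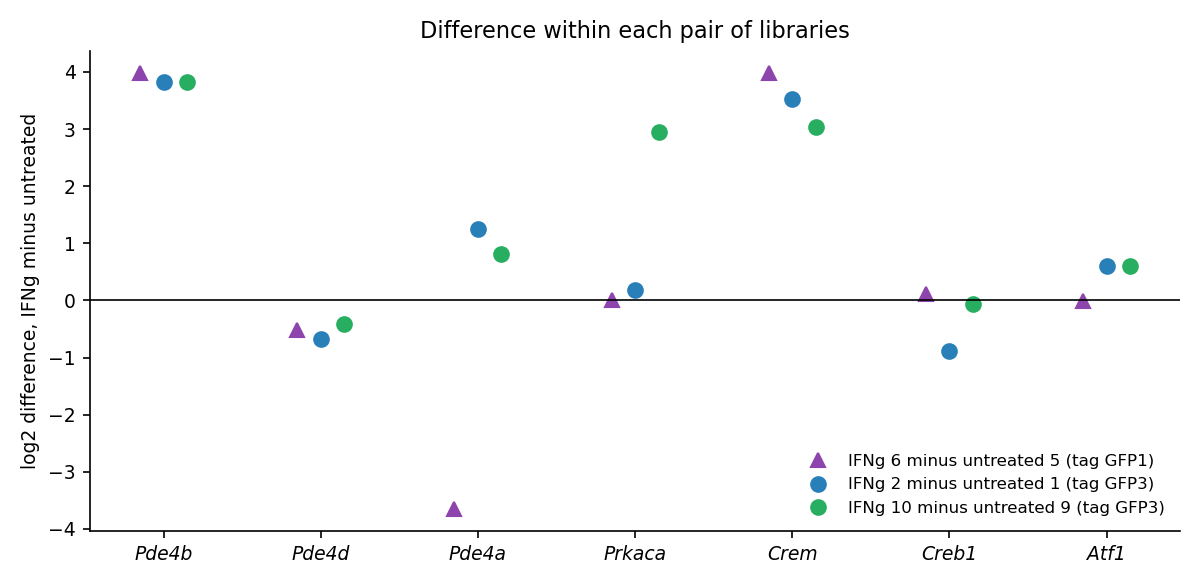
log2 difference, IFNg minus untreated (vertical axis), within each of the 3 pairs of libraries for the 7 genes; the triangle is the GFP1 pair and the circles are the GFP3 pairs. Pde4b lies at 3.82 to 3.99 and Crem at 3.03 to 3.98 in every pair, Pde4d lies at -0.67 to -0.41, and Pde4a spans -3.65 to 1.25.

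Groups that did not overlap were found for 2 members in the higher direction (Pde4b and Crem) and for 1 in the lower direction (Pde4d). Over all 16095 tested genes the same was true of 8.13% in the higher and 5.06% in the lower direction. By log2 difference Pde4b was number 49 and Crem number 58 of the 16095. Since the members were picked with this contrast known, nothing is read from these counts.

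The genes whose profile over the 6 libraries was most like a member's were ranked by Pearson correlation of log2(scaled count + 1), as a description over points that share 2 groups, a pair and a tag. For Pde4b these were Batf2, a transcription factor of the interferon response (r = 1.00), Irf9, the DNA-binding part of the ISGF3 complex (r = 0.998), and Igtp, an immunity-related GTPase (r = 0.998). Batf2 averaged 3628 ± 783 scaled counts in IFNg libraries and 56.8 ± 16.7 in untreated libraries, and Irf9 averaged 4188 ± 119 and 935 ± 56.1. For Crem they were Mroh8 (r = 0.997), Nampt, the rate-limiting enzyme of NAD salvage (r = 0.995), and the unnamed transcript 9330175E14Rik (r = 0.995). Nampt averaged 5528 ± 328 in IFNg libraries and 2049 ± 280 in untreated libraries. Crem was number 42 in the list for Pde4b (r = 0.979). The genes most like Pde4d were Phf20, Zfp329 and Tmed1 (r = 0.990 to 0.992), and those most like Pde4a were Ndnf, Gm43792 and Epb41l1 (r = 0.992 to 0.995), profiles that share a low value in IFNg 6.

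The rest of the cAMP pathway was described by 8 lists of 128 symbols, of which 115 were in the table and 99 were tested. No gene of these lists passed limma at an adjusted p below 0.05: 0 of 99 were higher, where 0.416% of all tested genes were, and 0 were lower, where 0.0124% were. Without adjustment, 12 of 99 were higher and 0 lower at p under 0.05, where 8.46% of all tested genes were higher. EdgeR called 0 (0.36% of all genes higher). DESeq2 called 5 higher and 0 lower, where 3.22% of the 14212 genes it gave an adjusted p were higher. It gave none for Pde7b, Pde8a, Adcy1, Gnai1, Mc1r, Gpbar1 and Akap14, which count here and below as not called. In the GFP3 libraries alone limma called 10 higher, where it called 8.27% of all genes higher. The median log2 difference of the 99 was 0.02, beside -0.08 over all tested genes.

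**Figure D5:**
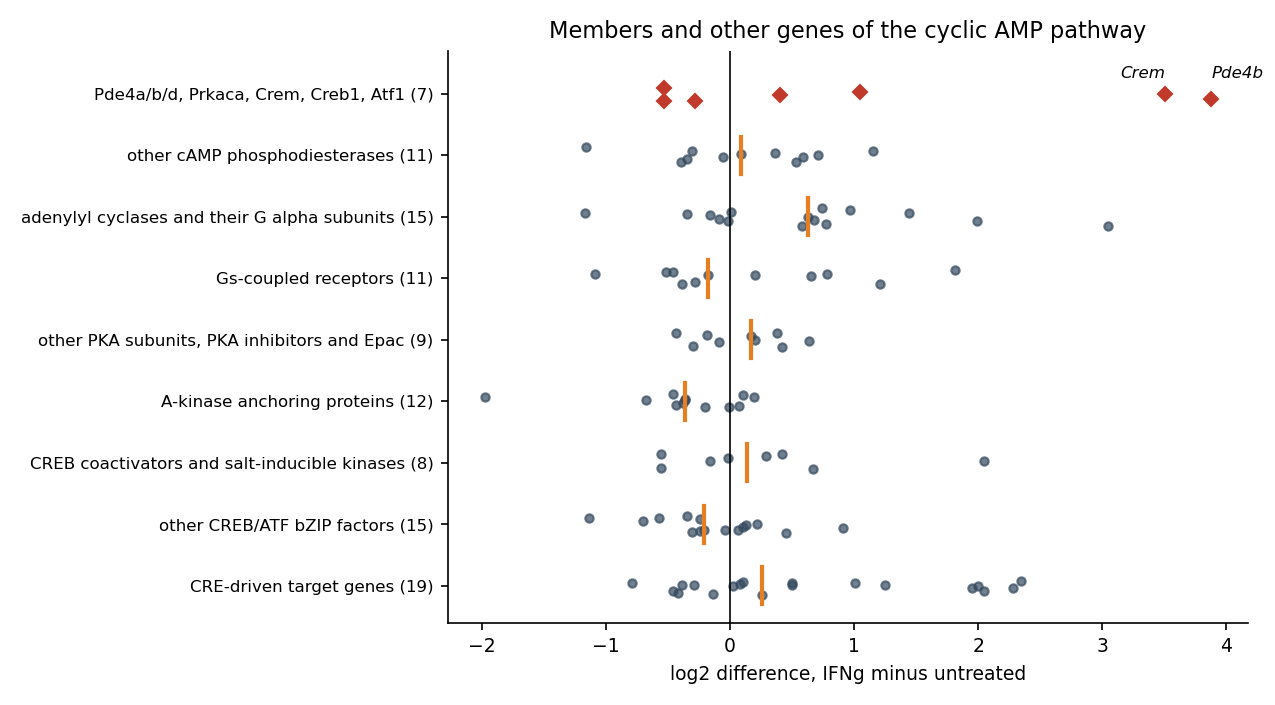
log2 difference, IFNg minus untreated (horizontal axis), of the 7 genes (red diamonds, top row) and of the tested genes of 8 pathway lists (dots, 1 row per list with its number of tested genes), with orange bars at the list medians. Pde4b and Crem lie at 3.88 and 3.51, to the right of every dot, the highest of which is at 3.05.

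Among other cAMP phosphodiesterases 0 of 11 passed in limma, edgeR or DESeq2, with 0 below 0.05 before adjustment and a median log2 difference of 0.09. Pde3a averaged 2866 ± 1670.2 in IFNg libraries and 1623 ± 409.9 in untreated libraries (limma adjusted p = 0.880, and 0.0302 in the GFP3 libraries alone, range over alternatives 0.0302 to 0.999). Pde2a averaged 805 ± 458 and 1105 ± 724 (0.921).

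Of 15 adenylyl cyclases and G alpha subunits, which make cAMP or steer its making, 0 passed in limma, edgeR or DESeq2. DESeq2 gave no adjusted p for Adcy1 and Gnai1. In limma 4 higher genes had an unadjusted p under 0.05 (8.46% of all tested genes). The median was 0.63, beside -0.08 over all tested genes. Gnai3, an inhibitory subunit, averaged 17383 ± 474 in IFNg libraries and 18914 ± 4682 in untreated libraries (limma adjusted p = 0.960). Gnai2, another inhibitory subunit, averaged 5005 ± 1272 and 2115 ± 1482 (0.342, and 0.00343 in the GFP3 libraries alone, range 0.00343 to 0.978). Gnai1, chosen after its values were seen as the highest dot of the lists, stood at 11.1, 16.4 and 77.2 in IFNg 6, 2 and 10 and at 0, 6.02 and 3.09 in untreated 5, 1 and 9 (0.385).

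Among receptors that raise cAMP through Gs, limma and edgeR called 0 of 11 and DESeq2 called 1 (3.22% of all genes). In limma 3 higher genes had an unadjusted p under 0.05 (8.46% of all tested genes), and the median was -0.18. Ptger4, a receptor for prostaglandin E2, stood at 1074, 3155 and 6287 scaled counts in IFNg 6, 2 and 10, and at 1092, 758 and 599 in untreated 5, 1 and 9. It was the gene DESeq2 called (adjusted p = 0.0158, but 0.331 in limma, range 0.00378 to 0.953). Both GFP3 pairs were higher and the GFP1 pair was level. Vipr1, a receptor for vasoactive intestinal peptide, averaged 2423 ± 1319 in IFNg libraries and 924 ± 184 in untreated libraries (limma adjusted p = 0.441, and 0.00355 in the GFP3 libraries alone, range 0.00355 to 0.992).

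Of 9 other PKA subunits, PKA inhibitors and Epac genes, 0 passed in limma, edgeR or DESeq2, with 0 at an unadjusted p under 0.05. Prkar1a, a regulatory subunit that holds the kinase inactive, averaged 14488 ± 619.5 in IFNg libraries and 16866 ± 4487 in untreated libraries (limma adjusted p = 0.920), and the inhibitor Pkig averaged 3293 ± 1200.6 and 2880.5 ± 1045 (0.934). Of 12 anchoring proteins that tether PKA, 0 passed in any of these tools, with 0 below 0.05 before adjustment and a median of -0.36. Akap9 averaged 6379 ± 803 in IFNg libraries and 8186 ± 1106 in untreated libraries (limma adjusted p = 0.836), and Akap8 averaged 3523 ± 363 and 4528 ± 479.9 (0.823).

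Among CREB coactivators and salt-inducible kinases limma and edgeR called 0 of 8 and DESeq2 called 1, which was Sik1 (3.22% of all genes). In limma 1 higher gene had an unadjusted p under 0.05 (8.46% of all tested genes). The acetyltransferase Crebbp averaged 2306 ± 498 in IFNg libraries and 3359 ± 406 in untreated libraries (limma adjusted p = 0.597), and Ep300 averaged 1676 ± 512 and 1886 ± 629 (0.949). Of 15 other CREB and ATF factors 0 passed in limma, edgeR or DESeq2, with 0 below 0.05 before adjustment and a median of -0.21. Atf4 averaged 18424.5 ± 3215 in IFNg libraries and 18108 ± 6866 in untreated libraries (limma adjusted p = 0.965), and Atf3 averaged 19519 ± 2715 and 14447 ± 3153 (0.755).

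Of 19 genes known to be driven through CREs, limma and edgeR called 0 and DESeq2 called 4 (3.22% of all genes), while 5 higher genes had an unadjusted p under 0.05 (8.46% of all genes) and the median was 0.26. Fos averaged 29610.2 ± 4577 in IFNg libraries and 28080.4 ± 7043 in untreated libraries (limma adjusted p = 0.959), and Junb averaged 28887 ± 4600.0 and 20337 ± 2753 (0.638). The genes DESeq2 called, named after their values were seen, were Areg, Egr1, Sik1 and Dusp1, and Sik1 also stands in the list of salt-inducible kinases. Areg, a ligand of the EGF receptor, stood at 18626, 26256 and 23003 in IFNg 6, 2 and 10, and at 9758, 2552 and 3409 in untreated 5, 1 and 9 (DESeq2 adjusted p = 0.00305, limma 0.111, range 6.04e-04 to 0.441). Egr1, an immediate early factor, stood at 12601, 28984 and 47443 in the IFNg libraries and at 8645, 6279 and 5529 in the untreated libraries (DESeq2 0.00108, limma 0.211, range 0.00108 to 0.768). Sik1, a kinase that keeps CREB coactivators in the cytoplasm, stood at 255, 1067 and 955 in the IFNg libraries and at 151, 132 and 183 in the untreated libraries (DESeq2 0.00131, limma 0.291, range 0.00131 to 0.884). Dusp1, a MAP kinase phosphatase, stood at 2578, 6064 and 21712 in the IFNg libraries and at 2504, 1333 and 1586 in the untreated libraries (DESeq2 0.0123, limma 0.348, range 0.0104 to 0.953). In each of these 4 genes all IFNg libraries lay above all untreated ones, as in 8.13% of all tested genes, and the GFP1 pair differed least. Since the 4 were named for being called higher in this contrast, nothing is read from that.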

How the data were processed

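RNA was measured in 6 libraries made, per the labels' protocols, from 2 ng of total RNA with a SMART-Seq v4 kit (12 PCR cycles) and a KAPA Hyper preparation (8 cycles), without strand marks or molecular identifiers. The authors' deposited values form 1 table, a signal per gene that its values show to be reads over 1 size factor per library (scaled counts). Build mm10 and, without roles, DESeq 1.22.1, HTSeq 0.5.3, STAR 2.5.0a and cutadapt 1.6 are named, per the submitters' processing notes. Annotation and strand setting: not given in the sources used here. In all, the 4 rows of no gene (reads with several alignments 18.5% to 25.0% of all values, outside genes 9.67% to 14.2%, unaligned 8.83% to 15.4%, ambiguous 0.948% to 1.20%) were left out. Division by each library's step gave whole reads for 100% of 138762 values (within 0.01 read), with 1 read worth 0.853 to 1.05 scaled counts.

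The test was limma 3.58.1 (R 4.3.3) on log2(scaled count + 1), which understates the change of low genes, two-sided, with a trended and robust prior. It ran on the 16095 genes whose mean reached 10 scaled counts, adjusted by Benjamini-Hochberg and called below 0.05. The code was checked on simulated independent libraries for recovery of large changes. That simulation had a common dispersion for all genes and no pair or tag effects, so it does not vouch for error rates in these data. EdgeR 4.0.16 and DESeq2 1.42.0 on the recovered reads were alternatives, with another pseudocount, filters and scaling, a pair block, the tag, and leaving out libraries. Groups came from the treatment labels. Deviations from group means correlated at 0.302 (6 with 5), 0.404 (2 with 1) and 0.252 (10 with 9), so the numbers were taken as pairs, from the data and not from the labels. No libraries matched within sampling noise (chi-square per degree of freedom 62.7 to 505). The lowest value was for IFNg 6 with untreated 5, the GFP1 pair, while IFNg 6 with IFNg 2 and 10 gave 246 and 303. Among the GFP3 libraries the lowest values lay within a group, 76.4 for IFNg 2 with 10 and 145 for untreated 1 with 9. Coordinates and exon lengths are from GENCODE M21 (GRCm38), which holds 99.5% of the table's gene IDs. Other promoter elements are not reported here. Members and lists were chosen with earlier results of these data known. Named list genes were any past the threshold (up to 4 by size of change) and the 2 with the highest mean per list, and the 3 genes most like each Pde4 member and Crem.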

Additional observations from a re-analysis of the deposited data

Results flagged for a closer look

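Each result here had a log2 difference, IFNg minus untreated, of one sign in the GFP1 pair (IFNg 6 and untreated 5) and of the other sign in both GFP3 pairs. Only the members and some of the named genes were screened, so the list is not complete. The PKA gene Prkacb and the marker Epcam, for example, also met this rule. With 1 GFP1 library per group, the GFP1 value rests on 1 pair. The value given first is the GFP3 mean minus the GFP1 value, in log2 units. Among the members this difference between tags was not tested. It was 4.69 for Pde4a, from 1.25 and 0.82 in the GFP3 pairs and -3.65 in the GFP1 pair, where IFNg 6 had 0 reads. It was 1.57 for Prkaca, where 2.95 in the pair of libraries 10 and 9 stood beside 0.19 in the other GFP3 pair, and the GFP1 pair lay just below 0 (176.5 scaled counts in IFNg 6 and 177.0 in untreated 5). It was 0.62 for Atf1, where the GFP1 pair was at -0.01 and the GFP3 pairs at 0.60 and 0.61. It was -0.58 for Creb1, where the GFP1 pair was at 0.11 and the GFP3 pairs at -0.88 and -0.06.

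For pathway genes the difference was tested as an interaction in limma, and none of those listed here passed. The prostaglandin receptor Ptger4 had 2.75 (interaction adjusted p = 0.124), the peptide receptor Vipr1 2.17 (0.118), the inhibitory G protein gene Gnai2 2.26 (0.121), the phosphodiesterase gene Pde3a 1.51 (0.168) and the hormone gene Sst, an enteroendocrine product, 4.78 (0.137). Smaller values were -0.57 for Gnai3 (0.668), -0.47 for Prkar1a (0.756) and -0.37 for Fos (0.814).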

How the results depend on the processing

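For Pde4b and Crem the direction held under all 15 alternatives, with log2 differences of 3.77 to 4.01 and 3.28 to 3.79, and for Pde4d it held at -0.64 to -0.40. It also held for Prkaca (0.48 to 1.57), Atf1 (0.21 to 0.68) and Creb1 (-0.47 to -0.03), although their groups overlapped. A held direction was thus not particular to Pde4b, Crem and Pde4d. Pde4a turned with a pseudocount of 10 (0.17), in edgeR (0.64), in DESeq2 (0.75) and in the GFP3 libraries (1.04), and ran from -1.51 to 1.33 when 1 library was left out; a minimum mean of 50 left it no value. By coding length, untreated levels put Creb1 at place 1, Atf1 at 2, Pde4b at 5 and Prkaca at 6; leaving out untreated 5 moved Pde4b (places 5 to 6 over left-out libraries) and Prkaca (5 to 6). In IFNg libraries, coding length put Creb1 at 2, Atf1 at 3 and Pde4b at 4. The Pde4b share of PDE4 signal became 88.0% in IFNg libraries by coding length, and its share of cAMP phosphodiesterase signal 5.81% in untreated libraries, both chosen after seeing the data.

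Genes called higher numbered 67, but 457 in DESeq2, 108 with the tag as a covariate, 1337 in the GFP3 libraries and 41 to 366 with 1 library left out. Genes called lower numbered 2, but 8 in DESeq2, 11 in the GFP3 libraries, 1 with a minimum mean of 50, 1 with the replicate block and 1 to 3 with 1 library left out. The pair block changed no call of a pathway list. Pathway genes called higher numbered 0, but 5 in DESeq2 (1 receptor, 1 coactivator or kinase, 4 CRE-driven genes) and 10 in the GFP3 libraries (1 phosphodiesterase, 1 G alpha gene, 2 receptors, 1 kinase, 6 CRE-driven genes). The 10 were Areg, Dusp1, Egr1, Gnai2, Nr4a2, Pde3a, Ptger4, Sik1, Sst and Vipr1, and held all 5 of DESeq2's. With 1 library left out they numbered 0 to 3 (3 without IFNg 6 and 3 without untreated 5), with 0 to 1 for G alpha genes, receptors and kinases and 0 to 2 for CRE-driven genes.

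Among uncalled genes, signs turned for Atf4 in edgeR (-0.03) and Fos in the GFP3 libraries (-0.03). With 1 library left out log2 differences ran from -0.96 to 0.11 for Pde2a, -0.30 to 0.07 for Gnai3, -0.38 to 0.01 for Prkar1a, -0.09 to 0.47 for Pkig, -0.45 to 0.11 for Ep300, -0.27 to 0.31 for Atf4 and -0.10 to 0.27 for Fos. The cause was not tested. Levels near 3 reads, as for Pde4a in IFNg 6, limit what depth can show.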
